A study of Caenorhabditis nigoni and Caenorhabditis briggsae with 14 samples.

Results

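The genes described here were expressed in males of both parental species and were silent, or almost silent, in the animals of those species that carry XX chromosomes. They were chosen from measured values: a mean level of 20 CPM or more in males of AF16 and of JU1421 (CPM, a gene's read count divided by its library's sum of gene counts, put on the usual scale), and a raw count of 0 or 1 in the AF16 female library and in the JU1421 female library. The choice found 106 of the 23439 genes counted. In Caenorhabditis, XO animals are males, and XX animals are females or self-fertile hermaphrodites. Transcripts found in males alone can come from the testis, where germ cells pass through meiosis and become sperm, or from male somatic tissue such as the copulatory tail, its neurons and the seminal vesicle. C. briggsae hermaphrodites make sperm for a limited time before they switch to oocytes, so genes for making sperm are used in their germ line too, at an earlier stage. None of the 106 genes is assigned to one of these tissues below, because the files list genes by WormBase identifier, do not pair the identifiers with names, and marker genes of germ line or soma were therefore not used here.

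The study compared sterile hybrid males with fertile males of the species they descend from, using mRNA of whole young adult worms. ZZY10307 and ZZY10330 carry a mostly C. nigoni genome in which a stretch of the X chromosome is from C. briggsae: positions 4.5 to 12.2 Mb in ZZY10307, and 16.4 Mb to the chromosome end in ZZY10330. Their males are sterile, were sired by JU1421 males on fertile females with the introgression, and were picked for the marker cbr-myo-2::GFP, a green fluorescent protein under the promoter of a pharyngeal myosin gene. AF16 is wild-type C. briggsae and JU1421 is wild-type C. nigoni, a species with females in place of hermaphrodites; males of both are fertile. Each of these 4 male groups had 3 libraries, and JU1421 and AF16 had 1 young adult female library each; the labels call the AF16 XX animals females. Every library pooled 300 animals, and nothing in the labels ties replicates to separate cultures; the p-values below rest on the variation among these libraries alone, which could be technical. In whole worms, fewer cells of a type and less RNA per cell cannot be told apart. Which chromosome each gene lies on, and whether it lies inside an introgressed stretch, was not analysed here.

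Gene counts per library totalled 2372653 to 3785106, and 12516 to 15231 genes had at least 1 count. The ZZY10330 libraries were uneven. Replicate 2 was the deepest of all but had the fewest genes with a count, 12516, while replicate 3 had 12854 and replicate 1 had 14531. Results on ZZY10330 are therefore also given without each of its libraries in turn. CPM are scaled by the library's total of gene counts, whereas fold changes come from edgeR's quasi-likelihood fit with TMM scaling over the 12 male libraries and 13289 genes with enough counts. All 106 genes were among those tested, with male counts that the choice itself required. A gene is called higher or lower at a Benjamini-Hochberg adjusted p below 0.05 over all genes tested.

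The near silence in XX animals, which chose the genes, was as follows. No count at all fell on 74 of the 106 genes in either female library, 23 had 1 count in AF16 females alone, 7 had 1 count in JU1421 females alone and 2 had 1 count in both. All 106 genes together had 25 counts in the AF16 female library and 9 in the JU1421 female library. With 3 counts as the most that a count of 0 allows, which covers counting error only, the limit for a gene without a count was 1.03 CPM in AF16 females and 0.878 CPM in JU1421 females. Set against the CPM of 3 counts for all 106 genes, with or without a female count, male levels were 19.5 to 4113 times as high in AF16, with a median of 107.3, and 24 to 2108 times in JU1421, with a median of 92.3. The AF16 females set the size of the group: of 5360 genes with 20 CPM or more in males of both parents, 122 had at most 1 count in AF16 females and 757 in JU1421 females. Silence in JU1421 females with 2 or more counts in AF16 females was found for 651 genes, and the reverse for 16. Whether reads of both species were counted against the same reference is not stated in the labels, and its part in these numbers was not tested.

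At the edge of the choice, WBGene00087144 was just inside with a lower parental mean of 20.03 CPM, and WBGene00028063 just outside with 19.7 CPM. WBGene00028063 averaged 15.8 CPM in ZZY10307 males and 25.9 CPM in ZZY10330 males. A further 28 genes met the male level and had 2 as their higher female count. Their median levels were 14.01 CPM in ZZY10307, 19.4 CPM in ZZY10330, 50.8 CPM in AF16 and 62.5 CPM in JU1421 males.

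In sterile males these genes were low. Together they took 0.195%, 0.154% and 0.180% of all gene counts in the 3 ZZY10307 libraries, a mean of 0.177% ± 0.0206 (SD, n = 3). In ZZY10330 males the shares were 0.467%, 0.512% and 0.398%, a mean of 0.459% ± 0.0571 (SD, n = 3). AF16 males gave 2.84%, 2.88% and 3.27%, a mean of 2.99% ± 0.241 (SD, n = 3), and JU1421 males 1.60%, 1.74% and 1.75%, a mean of 1.70% ± 0.0836 (SD, n = 3). Every ZZY10307 library was below every ZZY10330 library, and all 6 sterile libraries were below all 6 fertile ones. Behind the shares stood 4301 to 5610 counts per library in ZZY10307, 9454 to 19377 in ZZY10330, 86899 to 106026 in AF16 and 42445 to 50821 in JU1421.

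**Figure D1:**
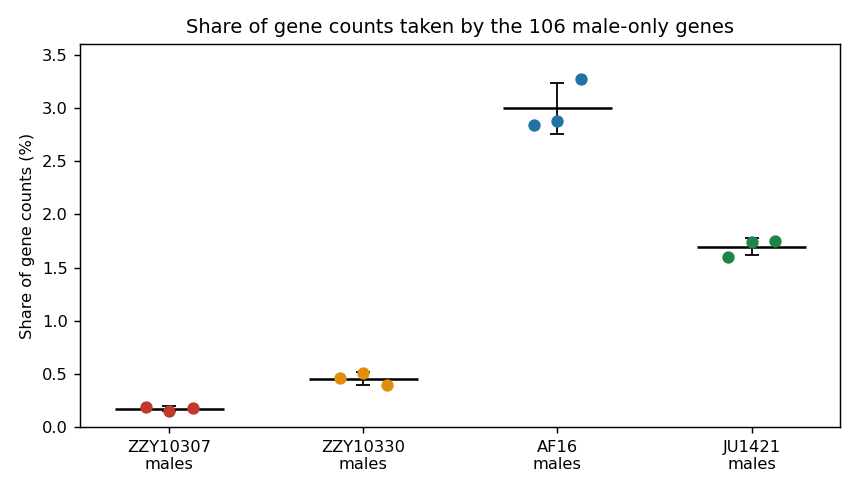
Share of all gene counts taken by the 106 male-only genes, in percent, for each male library (points) with the mean and SD of 3 libraries per strain. ZZY10307 sits lowest at 0.177%, then ZZY10330 at 0.459%, with AF16 highest at 2.99% and JU1421 at 1.70%.

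The median gene had 5.98 CPM in ZZY10307, 15.2 CPM in ZZY10330, 110.4 CPM in AF16 and 81.1 CPM in JU1421 males. Group means spanned 0 to 201.8 CPM in ZZY10307, 0 to 757.9 CPM in ZZY10330, 20.03 to 4231 CPM in AF16 and 21.1 to 1851 CPM in JU1421. Only 19 of the 106 genes still reached 20 CPM in ZZY10307 and 36 did so in ZZY10330, where the parents all reach it by choice. Means under 1 CPM were found for 11 genes in ZZY10307 and 3 genes in ZZY10330. The median coefficient of variation of these genes over 3 libraries was 50.5% in ZZY10307 and 51.1% in ZZY10330, at these lower levels, against 15.0% in AF16 and 17.2% in JU1421. Over all 5360 genes with 20 CPM or more in males of both parents it was 15.4% in ZZY10307, 24.3% in ZZY10330, 16.8% in AF16 and 18.2% in JU1421. The 5 most abundant genes of each strain made up 43.0% of the group's counts in ZZY10307, 49.8% in ZZY10330, 31.6% in AF16 and 32.3% in JU1421.

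**Figure D2:**
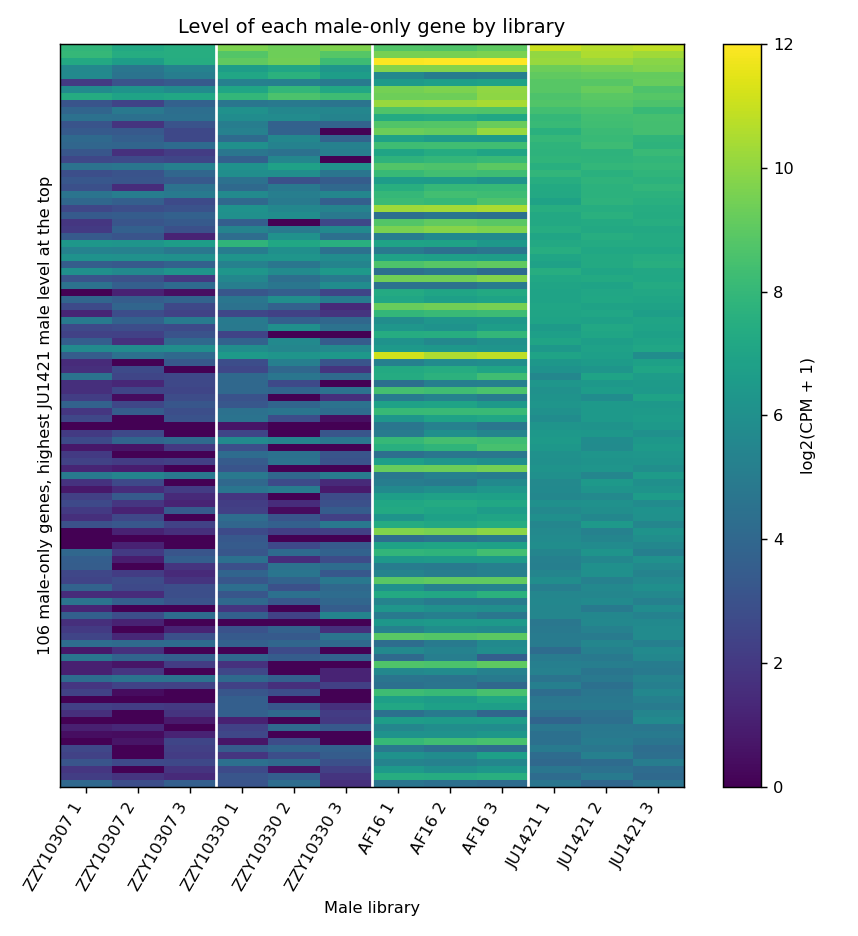
Levels of the 106 male-only genes as log2(CPM + 1), 1 row per gene in order of its mean in JU1421 males and 1 column per male library; levels above 12 take the colour of 12. The 6 sterile libraries on the left are dark over nearly the whole height, with a median gene at 5.98 CPM in ZZY10307 and 15.2 CPM in ZZY10330.

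The most abundant gene over the parents, WBGene00029072, had 149, 102 and 170.3 CPM in ZZY10307 males and 534, 673 and 300.1 CPM in ZZY10330 males. It had 3935, 4189.8 and 4568 CPM in AF16 males and 1132, 1161 and 933 CPM in JU1421 males. The 4 groups did not overlap, and ZZY10330 lay between ZZY10307 and the parents. Against JU1421 its log2 fold change was -3.34 (SE 0.25) in ZZY10307, at an edgeR adjusted p of 5.11e-09, and -1.36 (SE 0.24) in ZZY10330, at 0.000205. The second most abundant, WBGene00087013, had 236, 149 and 179 CPM in ZZY10307 and 805, 654 and 815 CPM in ZZY10330 males. AF16 males had 422, 412 and 512 CPM and JU1421 males 2122, 1607 and 1826 CPM. ZZY10330 here stood above AF16 and below JU1421, without overlap on either side.

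The comparison of ZZY10307 with JU1421, the species that makes up most of its genome, showed a drop of nearly the entire group. Of the 106 genes, 104 were lower in ZZY10307 males, none was higher and 2 were not called by edgeR. Among all 13289 genes tested, 13.5% were called lower and 9.29% higher. At an unadjusted p below 0.05 the number higher was also 0, and DESeq2 called 104 lower and 0 higher. The median log2 fold change of the group was -4.42, with the middle of the genes between -5.14 and -3.44 (quartiles), beside 0.09 over all genes tested. Gene by gene, a median of 6.20% of the JU1421 level was left in ZZY10307 (quartiles 3.66% and 12.04%). Less than 5% was left of 46 genes, less than 10% of 70 genes, and 50% or more of 3 genes. In the separate libraries, 105, 106 and 106 genes were below the lowest JU1421 library. The share of all genes tested that did so was not counted, and the choice held the JU1421 mean high.

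The floor of 20 CPM in JU1421 was part of the choice, so the JU1421 values are not independent of it. Of the 5254 other genes with 20 CPM or more in males of both parents, 26.1% were called lower in ZZY10307 than in JU1421 by edgeR, with a median of -0.17. When the genes were chosen on AF16 libraries alone, which leaves JU1421 out of the choice, 160 genes were found and 140 of them, 87.5%, were lower in ZZY10307 than in JU1421, with a median of -4.29. Chosen on JU1421 libraries alone, 933 genes had medians of -1.83 in ZZY10307 and -1.42 in ZZY10330 against JU1421, closer to 0 than the group chosen on both species. TMM scaling also enters. With library totals alone the median of all genes tested was 0.48 in place of 0.09, and the group's median was -4.01. Relative to all genes the group stood at -4.51 with TMM and -4.49 with totals, and 102 genes were then called lower.

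WBGene00087722 had no count in any ZZY10307 library. It had 0.581, 0 and 0 CPM in ZZY10330 males, 25.02, 37.98 and 25.98 CPM in AF16 males and 73.6, 70.9 and 86.3 CPM in JU1421 males. Measured against 3 counts over the 3 ZZY10307 libraries, it was at least 218.6-fold lower than in JU1421 (edgeR adjusted p = 8.37e-09). Its 2 counts in ZZY10330, both in replicate 1, make it 369-fold lower there (counting interval 102 to 3053, edgeR adjusted p = 3.52e-08). The sterile strains thus shared a near absence of this transcript, which AF16 males had at 29.7 ± 7.22 CPM and JU1421 males at 76.9 ± 8.22 CPM (mean ± SD, n = 3 each).

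WBGene00038755 likewise had no count in ZZY10307 and was at least 149.4-fold lower than in JU1421 (edgeR adjusted p = 0.000541). In ZZY10330 all of its 31 counts came from replicate 1, at 9.001 CPM, with 0 in the other two libraries. AF16 males had 18.8, 22.8 and 30.1 CPM and JU1421 males 55.1, 42.5 and 60.2 CPM.

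Of the 106 genes, 2 were not called by edgeR in ZZY10307 against JU1421 in the fit on all 12 male libraries. A fit on the libraries of these strains alone called 106 lower, these 2 among them. WBGene00034035 had 18.1, 22.7 and 22.2 CPM in ZZY10307 males and 16.3, 11.4 and 1.26 CPM in ZZY10330 males. AF16 males had 24.7, 22.8 and 28.99 CPM and JU1421 males 23.4, 28.1 and 40.2 CPM. Its log2 fold change in ZZY10307 was -0.94 (SE 0.51, edgeR adjusted p = 0.216), and all 3 ZZY10307 libraries were below all 3 of JU1421 in CPM. In ZZY10330 the same gene was called lower, at -1.90 (edgeR adjusted p = 0.00975), with the lowest value, 1.26 CPM, in replicate 3. The other, WBGene00039591, had 15.7, 6.13 and 11.3 CPM in ZZY10307 and 24.9, 15.1 and 23.2 CPM in JU1421 males, groups that overlapped (log2 fold change -1.31, SE 0.59, edgeR adjusted p = 0.121).

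In ZZY10330 the drop was nearly as widespread, and its median was smaller. Against JU1421, 99 of the 106 genes were lower, none was higher and 7 were not called by edgeR, where 16.1% of all genes tested were lower and 12.6% higher. The number higher at an unadjusted p below 0.05 was 0, and DESeq2 called 98 lower and 0 higher. The median log2 fold change was -2.58 (quartiles -3.82 and -1.91), beside -0.03 over all genes tested. Leaving out ZZY10330 replicate 1, 2 or 3 gave 96, 98 and 96 genes lower. Among the other 5254 genes at 20 CPM or more in both parents, 30.6% were lower, with a median of -0.31. Of the 160 genes chosen on AF16 alone, which include all 106, 79.4% were lower, with a median of -2.43. A median of 19.96% of the JU1421 level was left (quartiles 8.15% and 31.4%), with less than 10% left of 31 genes and 50% or more of 5 genes. In each of the 3 libraries, 103 genes were below the lowest JU1421 library, and the share of all genes tested that did so was not counted.

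**Figure D3:**
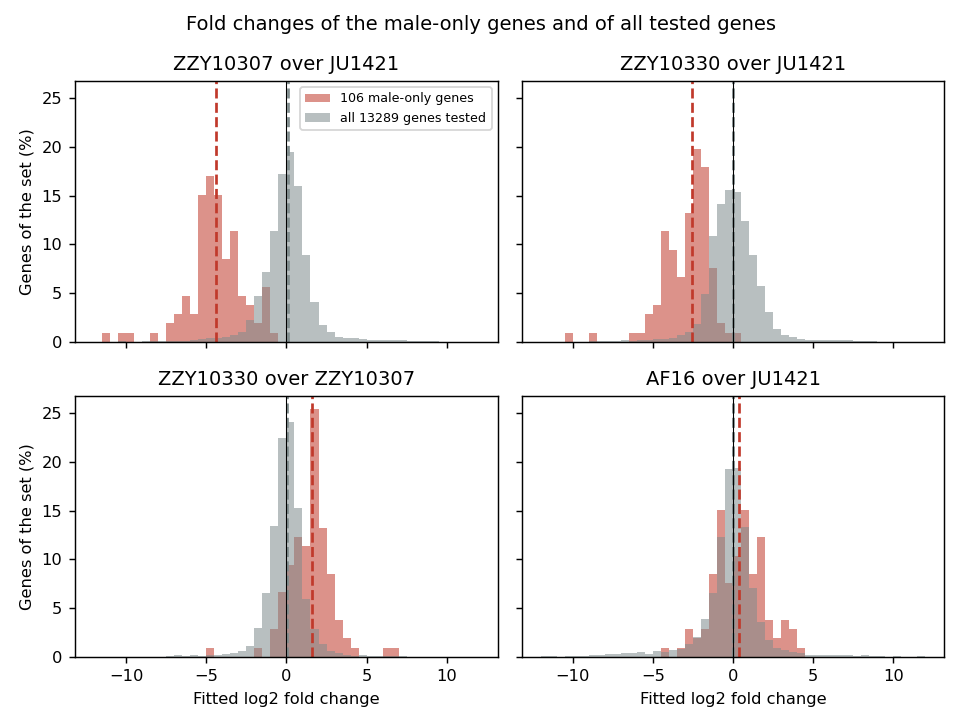
Distribution of fitted log2 fold changes of the 106 male-only genes and of all 13289 genes tested, as percent of each set per bin, in 4 comparisons of male libraries (3 against 3); dashed lines mark the medians and the solid line marks 0. The male-only genes have medians of -4.42 in ZZY10307 over JU1421, -2.58 in ZZY10330 over JU1421, 1.59 in ZZY10330 over ZZY10307 and 0.35 in AF16 over JU1421.

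WBGene00034383 had no count in any ZZY10330 library. It had 2.09, 1.23 and 0 CPM in ZZY10307, 81.2, 88.7 and 85.5 CPM in AF16 and 25.7, 47.3 and 50.8 CPM in JU1421 males. Against 3 counts over the ZZY10330 libraries it was at least 132-fold lower than in JU1421 (edgeR adjusted p = 1.42e-07).

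At the other end, WBGene00032246 was the member closest to its JU1421 level in ZZY10330. It had 79.7, 76.4 and 102 CPM in ZZY10307 males and 229, 141 and 188 CPM in ZZY10330 males, with 123, 119 and 82.5 CPM in AF16 and 149, 159 and 161 CPM in JU1421 males. The ZZY10330 and JU1421 libraries overlapped, at a log2 fold change of 0.02 (SE 0.23, edgeR adjusted p = 0.968) whose sign turned when single libraries were left out. In ZZY10307 the gene was lower than in JU1421, at -1.26 (edgeR adjusted p = 0.000299). WBGene00035636 was not called in ZZY10330 either, at -0.45 (edgeR adjusted p = 0.220); without JU1421 replicate 3 it was -0.72, with an edgeR adjusted p of 0.0407. Its level was 10.4, 21.2 and 16.3 CPM in ZZY10307 and 92.3, 75.8 and 84.3 CPM in ZZY10330 males, beside 2268, 1468 and 1792 CPM in AF16 and 122, 109.9 and 58.7 CPM in JU1421 males. It was lower in ZZY10307 than in JU1421, at -2.999 (edgeR adjusted p = 1.73e-07).

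The comparison of the sterile strains with each other set only their own libraries against each other, and none of these chose the genes. Its calls also rest on the parental libraries, because the fit took scaling and spread from all 12 male libraries together. Of the 106 genes, edgeR called 47 higher in ZZY10330 than in ZZY10307 males, 1 lower and 58 neither way. The share of all genes tested was 5.07% for higher and 3.44% for lower. The group's median log2 fold change was 1.59 (quartiles 0.73 and 2.20), or 1.55 with genes without a count in a strain held at their bounds, beside 0.02 over all genes tested. The fitted value was above 0 for 94 genes, called or not, beside 6755 of all 13289 genes tested. DESeq2 called 51 of the 106 higher and 1 lower. All 3 ZZY10330 libraries were above all 3 ZZY10307 libraries in CPM for 44 genes, where 10.2% of all genes tested did so. Without ZZY10330 replicate 1, 2 or 3 the genes called higher numbered 45, 47 and 51, and the medians were 1.36, 1.49 and 1.68. A fit on the 6 libraries of the sterile strains alone called 24 genes higher and 0 lower. The share of all genes tested that this smaller fit called is not given here.

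**Figure D4:**
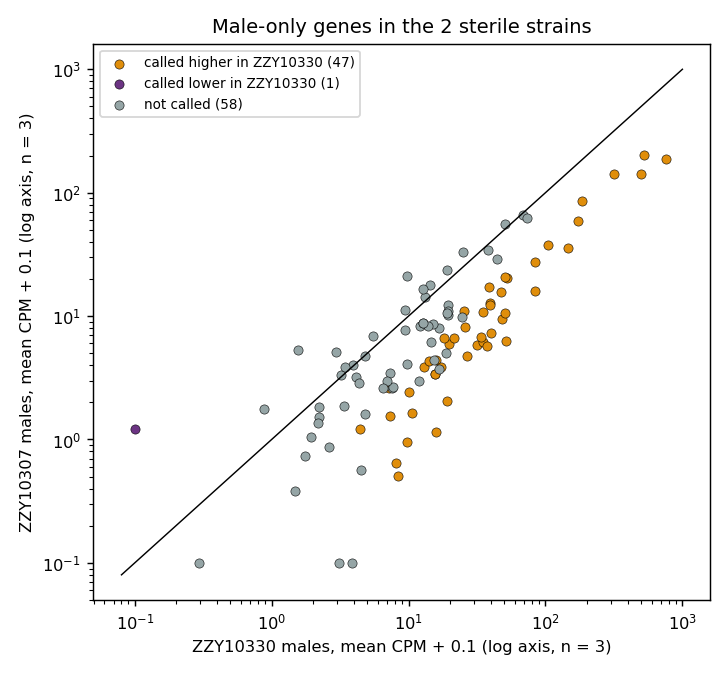
Mean level of each of the 106 male-only genes in ZZY10330 males (horizontal) and in ZZY10307 males (vertical), as CPM + 0.1 on log axes, n = 3 libraries each, coloured by edgeR's call; the line marks equal levels. The 47 genes called higher in ZZY10330 lie below the line, and 1 called gene, WBGene00034383, lies above it.

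WBGene00028305 had the highest fitted value among the genes called higher in ZZY10330. Its level was 0, 1.23 and 0 CPM in ZZY10307 males, 4 counts in all, and 9.87, 5.28 and 9.69 CPM in ZZY10330 males. AF16 males had 122, 127 and 114 CPM and JU1421 males 58.5, 53.4 and 45.7 CPM. Thus ZZY10330 stood above ZZY10307 in every library while both were far under the parents. The log2 fold change was 4.18 (SE 0.62, edgeR adjusted p = 0.000172), and 7.55 without ZZY10307 replicate 2, the only ZZY10307 library with a count. WBGene00038110 followed at 3.97 (SE 0.69, edgeR adjusted p = 0.00101), with 18.003, 21.1 and 8.01 CPM in ZZY10330 and 3.13, 0 and 0 CPM in ZZY10307, 9 counts all in replicate 1. Without that replicate its value was 8.496. WBGene00029072, the most abundant gene over the parents, was 1.98 higher in ZZY10330 on the log2 scale, and WBGene00032246 was 1.28 higher.

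The gene called lower in ZZY10330 was WBGene00034383, with 0 counts in ZZY10330 and 10 in ZZY10307. It was at least 3.54-fold lower (edgeR adjusted p = 0.0395), and the call was lost in 5 of the 6 fits that left out 1 library of the sterile strains, at edgeR adjusted p of 0.0680 to 0.138.

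**Figure D5:**
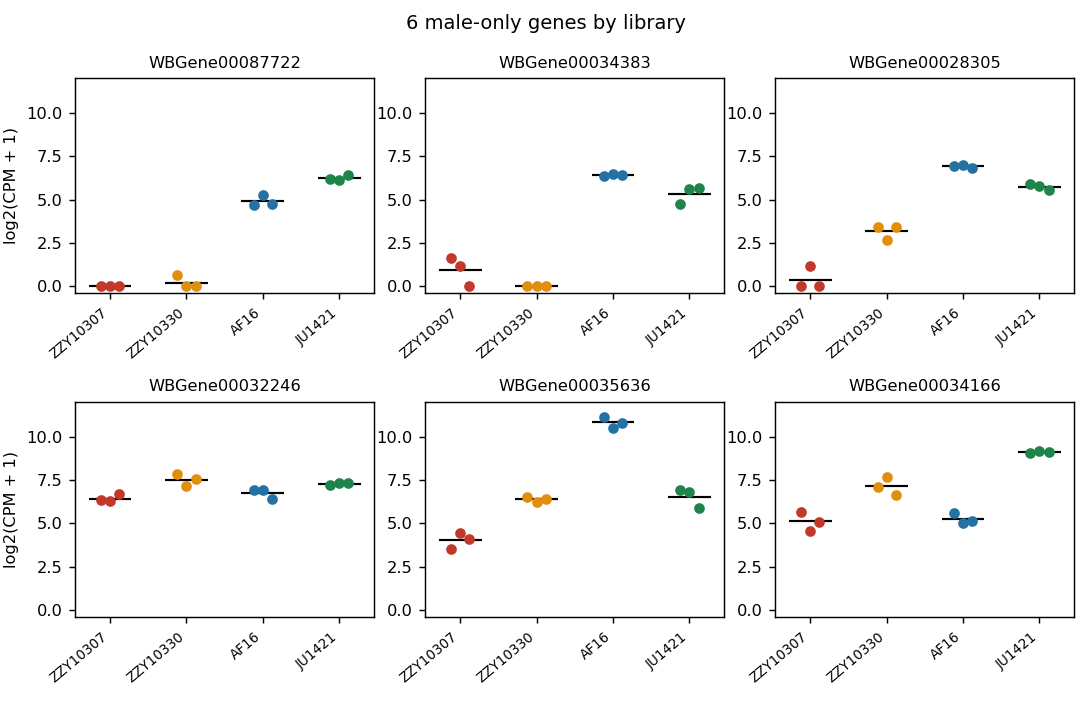
Level as log2(CPM + 1) in every male library (points) with the mean of 3 libraries (line) for 6 of the male-only genes. WBGene00087722 and WBGene00034383 are at or near 0 in both sterile strains, WBGene00028305 is higher in ZZY10330 than in ZZY10307, and WBGene00032246 is near its JU1421 level of 156 ± 6.66 CPM in ZZY10330.

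Against AF16, the C. briggsae parent, ZZY10307 males were lower for 97 of the 106 genes and higher for 1 by edgeR, where 13.3% of all genes tested were lower and 12.8% higher. ZZY10330 males were lower for 88 and higher for 5, where 13.3% of all genes tested were lower and 13.4% higher. The medians were -4.93 in ZZY10307 and -3.22 in ZZY10330. These comparisons share the sterile libraries with those against JU1421. Without ZZY10330 replicate 1, 2 or 3, the genes called lower than in AF16 numbered 85, 89 and 85. The floor of 20 CPM in AF16 was part of the choice, so the AF16 values are not independent of it. Of the 5254 other genes with 20 CPM or more in males of both parents, 24.8% were lower than in AF16 in ZZY10307 and 23.1% in ZZY10330. Of the 933 genes chosen on JU1421 alone, which include the 106, 67.3% were lower in ZZY10307 (median -1.47) and 55.3% in ZZY10330 (median -1.05). In CPM, all 3 ZZY10307 libraries were below all 6 parental libraries for 98 of the 106 genes, where 8.55% of all genes tested were. For ZZY10330 this held for 89 of the 106, where 8.59% of all genes tested were. Group means followed the order ZZY10307, then ZZY10330, then both parents for 83 of the 106 genes. The share of all genes tested with this order was not counted. Because the choice held both parental means at 20 CPM or more, it fixed part of the order.

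The genes above AF16 were few and are named because of their values. WBGene00043000 was the only gene higher in ZZY10307 than in AF16, with 63.4, 49.99 and 74.05 CPM in ZZY10307 males and 77.2, 54.95 and 87.2 CPM in ZZY10330 males. AF16 had 19.8, 25.2 and 17.3 CPM and JU1421 176, 130.2 and 148 CPM, so both sterile strains lay between the parents without overlap with either. Its log2 fold change over AF16 in ZZY10307 was 1.28 (edgeR adjusted p = 0.00110). In ZZY10330 the genes higher than in AF16 were WBGene00032246, WBGene00034166, WBGene00040156, WBGene00043000 and WBGene00087013; without ZZY10330 replicate 1 or 3, or without AF16 replicate 1 or 2, 3 genes were called. WBGene00034166 had 50.1, 23.003 and 33.5 CPM in ZZY10307 and 137, 202 and 99.9 CPM in ZZY10330 males, with 46.8, 31.7 and 33.9 CPM in AF16 and 543, 569.6 and 567 CPM in JU1421 males. Here ZZY10307 and AF16 overlapped, at -0.37 (edgeR adjusted p = 0.370), and ZZY10330 was above AF16 by 1.81 (edgeR adjusted p = 3.27e-05) while still under JU1421.

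The parents themselves differed in these genes in both directions. AF16 males were higher than JU1421 males for 31 of the 106, lower for 17 and not called by edgeR for 58, with a median log2 fold change of 0.35. Of all genes tested 9.23% were higher and 11.2% lower. Both parents had to reach the same floor in the choice, so these numbers only describe the genes. A fit on these 6 libraries alone called 47 higher and 27 lower, and its share of all genes tested is not given here. The widest gap was in WBGene00035636, at 1843 ± 402 CPM in AF16 and 96.99 ± 33.7 CPM in JU1421 males (mean ± SD, n = 3 each), a log2 fold change of 4.14. Among genes higher in AF16, WBGene00035770 came next with 863 ± 99.3 CPM in AF16 and 52.7 ± 17.1 CPM in JU1421. It was low in both sterile strains, at 0, 1.23 and 2.09 CPM in ZZY10307 and 5.52, 3.699 and 3.79 CPM in ZZY10330. The lowest in AF16 relative to JU1421 were WBGene00034166, at -4.001, and WBGene00040156, at -3.08. WBGene00040156 had 9.399, 10.1 and 12.1 CPM in ZZY10307, 64.2, 58.9 and 28.2 CPM in ZZY10330, 19.8, 24.1 and 21.5 CPM in AF16 and 153, 193 and 169 CPM in JU1421 males.

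The genes were also grouped by how the parents differed and by their level, which fixes part of each comparison with a parent. The 31 genes higher in AF16 had a median of -4.25 in ZZY10307 against JU1421, the 58 not called -4.66 and the 17 lower in AF16 -4.37. Against AF16 the medians in the same order were -6.61, -4.67 and -2.20 in ZZY10307 and -4.69, -2.96 and -0.69 in ZZY10330. In ZZY10330 over ZZY10307, the medians were 1.83, 1.44 and 1.51 in the same order, with 20, 16 and 11 genes called higher. Divided into 3 parts by AF16 level, low to high, the genes had medians of -4.40, -4.58 and -4.40 in ZZY10307 against JU1421, and of -3.22, -5.15 and -6.49 against AF16. The 74 genes without any female count had a median of -4.65 in ZZY10307 against JU1421 and the 32 with 1 or 2 counts a median of -4.18.

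The order of levels within the group is described by Spearman's rho over the 106 genes, which share libraries within each strain. It was 0.81 between ZZY10330 and ZZY10307, 0.72 between ZZY10330 and JU1421, and 0.60 between ZZY10307 and JU1421. With AF16 it was 0.27 for ZZY10330 and 0.17 for ZZY10307, and between AF16 and JU1421 it was 0.45. Of the 10 highest genes, 7 were shared between ZZY10330 and ZZY10307, 7 between ZZY10330 and JU1421, and 6 between ZZY10307 and JU1421.

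Some of the genes had consecutive identifiers. Of the 106 genes, 37 (34.9%) fell into 17 such runs, 15 of 2 genes, 1 of 3 and 1 of 4. Identifiers do not give position, reads shared by near-identical copies cannot be told apart here, and how common such runs are in other genes was not tested. The genes of a run had fold changes of the same sign in 15 of the 17 runs between ZZY10330 and ZZY10307, and in 11 of 17 between AF16 and JU1421. Over all 106 genes, the fitted value was above 0 for 94 in the first comparison and for 63 in the second. Many genes thus share a sign whether or not they are in a run, and runs were not tested against this. The run of 3, WBGene00028305 to WBGene00028307, is described because of its values: its mean levels in ZZY10307 were 0.409, 6.11 and 5.598 CPM, and in ZZY10330 8.28, 34.8 and 37.4 CPM. In AF16 they were 120.9, 46.5 and 81.7 CPM, and in JU1421 52.5, 156.5 and 121.5 CPM. All 3 genes were higher in ZZY10330 than in ZZY10307, by 2.59 to 4.18 on the log2 scale. The run of 4, WBGene00037298 to WBGene00037301, had fold changes of 0.15 to 1.61 between the sterile strains, and -5.72 to -4.12 in ZZY10307 and -4.47 to -3.96 in ZZY10330 against JU1421.

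Outside the group, 651 genes met the same floor of 20 CPM in males of both parents and the same limit in JU1421 females. They had at most 1 count in JU1421 females but 2 or more in AF16 females. Their male levels were not matched to those of the male-only genes. In ZZY10307 against JU1421, 588 of these (90.3%) were called lower by edgeR with a median of -1.69, where the male-only genes had a median of -4.42. In ZZY10330 against JU1421, 562 (86.3%) were lower with a median of -1.32, where the male-only genes had -2.58. Between the sterile strains, 106 of the 651 (16.3%) were higher in ZZY10330 with a median of 0.41, and 47 of the 106 male-only genes (44.3%) with 1.59. The difference between these sets was not tested, since female counts chose both.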

How the data were processed

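The assay was mRNA sequencing of pooled young adults, in 12 male and 2 female libraries. Per the labels' protocols, each library pooled 300 animals. Male libraries were made from 300 ng of TRIzol-extracted RNA with a stranded TruSeq kit and read as paired 150 nt on a MiSeq, per the series' design text; for females the sources used here do not give these details. Trimmomatic and edgeR are named, with no version, per the submitters' processing notes. Aligner, counting tool, genome build, annotation and strandedness setting: not given in the sources used here.

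Gene-level values are raw counts deposited by the authors, as the values in the files show: whole numbers for 23439 WormBase identifiers. Counts of repeat families were not used here. The genes described were taken from these counts by the rule in the report, and the genes and all lists were chosen with earlier results of these data known. Levels are CPM of the library's gene total.

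Counts of the 12 male libraries were filtered with filterByExpr, TMM-scaled and fitted in a single model of strain in edgeR 4.0.16 (R 4.3.3, limma 3.58.1). Strains were compared with the quasi-likelihood test and Benjamini-Hochberg adjustment over 13289 genes. DESeq2 1.42.0, other scalings, no filter, fits on 2 groups, a replicate block, each library left out and other rules of choice were alternatives. A fold against a group without counts is a bound from 3 counts over the group; counting intervals are exact at 95%. Bounds and intervals cover counting error only, and bounds cover that of the group without counts alone. Replicate libraries were no duplicates: chi-square over its degrees of freedom, between libraries of a strain, was 7.01 to 25.6.

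Named genes comprise the 2 or fewer with the largest called change in a direction, those nearest to 0 that were not called, and the most abundant; others are said to be named for their values. Planned lists of germ line, soma and X-linked genes were not used here, since the files pair no identifier with a name or position. Reads shared by near-identical genes, or by genes on opposite strands, could not be separated.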

Additional observations from a re-analysis of the deposited data

Results flagged for a closer look

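The sterile strains differed from each other in this group of genes, by edgeR's test of the difference itself. Of the 106 genes, 47 were higher in ZZY10330 than in ZZY10307 males and 1 was lower, where 5.07% of all genes tested were higher and 3.44% lower. A fit on the libraries of these strains alone called 24 higher and 0 lower, and its share of all genes tested is not given here. WBGene00028305 differed by 4.18 and WBGene00038110 by 3.97 on the log2 scale, both higher in ZZY10330. WBGene00034383 differed the other way, at a fitted -4.65, from 0 counts in ZZY10330 and 10 counts in ZZY10307, a value that is no bound. Its call was lost in 5 of the 6 fits that left out 1 library of these strains.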

How the results depend on the processing

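With median-ratio factors, DESeq2 and no low-count filter, the genes called lower than in JU1421 numbered 104, 104 and 104 in ZZY10307 and 98, 98 and 101 in ZZY10330, beside 104 and 99; which genes these were was not compared. With library totals alone the medians were -4.01 for ZZY10307 and -2.33 for ZZY10330 against JU1421 and 0.45 for AF16 against JU1421. With a floor of 10 CPM the medians of ZZY10307 and ZZY10330 were -4.01 and -2.26 against JU1421 and -4.13 and -2.45 against AF16, and that of AF16 against JU1421 was 0.13. With a floor of 50 CPM they were -4.66 for ZZY10307 against JU1421, -3.50 for ZZY10330 against AF16 and 0.64 for AF16 against JU1421. Genes without a female count had -4.65 in ZZY10307 against JU1421. Chosen on AF16 alone, the medians were -3.63 for ZZY10330 against AF16 and 0.91 for AF16 against JU1421. Chosen on JU1421 alone, they were -1.83 and -1.42 for ZZY10307 and ZZY10330 against JU1421, -1.47 and -1.05 against AF16, 0.50 for ZZY10330 against ZZY10307, and -0.31, the opposite sign, for AF16 against JU1421; 55.3% were then lower in ZZY10330 than in AF16 and 27.5% lower in AF16 than in JU1421. The share lower in ZZY10330 than in ZZY10307, 0.943% of the 106, was 0% with the floor of 50 CPM or without female counts, and 0.107% when chosen on JU1421 alone. For these shifts the cause was not tested. Fits on the 2 groups compared gave 106 genes lower in ZZY10307 and 95 in ZZY10330 than in JU1421. They gave 24 higher and 0 lower in ZZY10330 than in ZZY10307, and 3 higher in ZZY10330 than in AF16. For AF16 over JU1421 they gave 47 higher and 27 lower. Shares of all genes tested in these fits are not given here. Without the low-count filter 2 were lower in ZZY10330 than in ZZY10307. JU1421's share was 1.79% without the 10 most abundant genes in the total.

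Leaving out 1 library gave medians of -4.61 to -4.26 (ZZY10307 against JU1421), 1.36 to 1.68 (ZZY10330 against ZZY10307) and 0.32 to 0.49 (AF16 against JU1421). It gave 0 to 2 genes lower in ZZY10330 than in ZZY10307 and 3 to 5 higher in ZZY10330 than in AF16. WBGene00032246 in ZZY10330 against JU1421 was -0.04 without JU1421 replicate 1, -0.15 without ZZY10330 replicate 1 and -0.04 without ZZY10330 replicate 3, within a range of -0.15 to 0.21 over all libraries left out.

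Replicate numbers did not pair the libraries: the correlations of same-numbered libraries ran from -0.05 to 0.04 over 18 pairs, 0 of them above 0.1, and 4 of 12 libraries correlated best with their own number. With the number as a replicate block, 104 genes were lower in ZZY10307 and 98 in ZZY10330 than in JU1421, 45 were higher and 0 lower in ZZY10330 than in ZZY10307, and the AF16 median over JU1421 was 0.44. In sterile males, levels near 1 CPM rest on a few counts per library, which limits single-gene comparisons there.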

Other observations

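Counts of single genes were scattered between libraries of a sterile strain. In ZZY10330, 18 of the 106 genes (17.0%) had no count in 1 or more libraries but at least 10 counts in another. This was close to the 13.9% of all genes tested. Replicates 2 and 3, the libraries with the fewest genes seen (12516 and 12854), lacked 12 of these 18 genes each. In ZZY10307 the same pattern held for 11 genes (10.4%), beside 3.62% of all genes tested. The number of the 106 genes without a count was 2, 16 and 15 in the ZZY10330 libraries, 8, 14 and 16 in the ZZY10307 libraries, and 0 in every parental male library.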
